A study of Homo sapiens with 15 samples.

Results

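CALDOX is a doxorubicin-resistant breast cancer cell line, and this experiment recorded its gene expression after it met the drug again at 4 µM for 24 h. The comparison set the 3 arrays titled CALDOX24 against the 3 arrays titled CALDOX, 6 of the 15 arrays of the series. It covered every probe set with a single gene symbol, 41091 of the 54675 on the array, which represent 19775 genes. Arrays were chosen by title and probe sets by annotation, and each gene was read from its probe set with the highest mean over all arrays.

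CAL51 is a triple-negative breast cancer line, and CALDOX was derived from it by long incubation in 0.4 µM doxorubicin until the cells grew in the drug. Each group holds 3 independent cultures, with 1 array for each. Per the labels' protocols, CALDOX was routinely kept in doxorubicin, and the rechallenged cultures spent 3 passages without drug before receiving 4 µM at 50% confluency. Parental CAL51, untreated or given 0.4 µM for 24 h, serves below as the comparison with a first exposure. The remaining group of the series, CAL51 given 0.4 µM for 48 h, entered the fit and the choice of probe sets but is not compared below. The labels do not say whether the untreated CALDOX cultures were free of drug, whether CALDOX is 1 clone or a pool, or what vehicle the controls received. Drug left in the untreated CALDOX cultures would change what treated against untreated measures in this line. The lines were also given different doses. The effects of line, dose and any drug in those controls on a difference between the lines cannot be told apart.

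Doxorubicin is an anthracycline that traps topoisomerase II on DNA and leaves double-strand breaks. Breaks activate the kinases that stabilise p53, and p53 then raises genes for cell-cycle arrest, repair and death, together with its own inhibitor MDM2. The arrest factor p21, encoded by CDKN1A, keeps the retinoblastoma family active, and these proteins and the DREAM complex hold down genes for DNA replication and mitosis.

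All values are RMA log2 intensities as deposited, on which 1 unit is a doubling. A value written a ± b is a log2 fold change, treated minus untreated, with its limma standard error and n = 3 arrays in each group. A gene is said to have risen, fallen or changed where its Benjamini-Hochberg adjusted p from limma over all 19775 genes was under 0.05. The arrays of untreated CALDOX correlated with each other at 0.9961 to 0.9974 over all probe sets, those of treated CALDOX at 0.9975 to 0.9978, and the groups with each other at 0.9944 to 0.9953. The medians of these 6 arrays lay between 6.947 and 6.995. The poly-A control probe sets averaged 11.18 to 11.22 on treated arrays and 10.75 to 10.93 on untreated CALDOX arrays, while the hybridization controls differed by 0.06. In CAL51 the poly-A controls averaged 11.05 to 11.14 untreated, 11.03 to 11.21 at 24 h and 11.07 to 11.23 at 48 h. The untreated CALDOX arrays, the controls of the main comparison, were thus the low ones. The labels do not say how these controls were added, so the arrays were not rescaled on them, and the part of this offset in the results was not tested. EPCAM read 12.18 to 12.40, KRT8 11.96 to 12.16 and KRT18 13.55 to 13.66 on the 6 arrays. These are markers of epithelial cells, as is CDH1, which read 5.84 to 6.73. The mesenchymal markers VIM, CDH2 and FN1 read 10.80 to 11.36, 10.32 to 10.88 and 13.40 to 13.77. ESR1 read 8.28 to 8.39, PGR 6.04 to 6.22 and ERBB2 9.87 to 10.16, and the mean of ERBB2 stood at percentile 85.6 of all genes. The table holds no detection calls, so the receptor status that defines the subtype could not be checked from these values.

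Rechallenge changed 2041 of 19775 genes, 10.3% of those tested. Of these, 954 rose (4.82% of all genes) and 1087 fell (5.50%), but only 20 rose and 4 fell by at least 2-fold, and the median over all genes was -0.01. Leaving out 1 CALDOX array at a time gave 1341 to 1651 genes, with the lowest count without treated replicate 1. Without untreated replicate 2 the split turned, with 854 higher and 672 lower, and without treated replicate 1 it was 668 and 673. For 30.8% of all genes, called or not, every treated array lay on the same side of every untreated one. In CAL51, 0.4 µM for 24 h changed 1999 genes (10.1%), 1141 higher (5.77%) and 858 lower (4.34%), with 41 and 4 of them at least 2-fold. That split turned to 1243 higher and 1635 lower when the spread of each array was a covariate. With only the arrays of the groups compared in the fit, CAL51 gave 870 genes, 600 higher and 270 lower. CALDOX gave 2456 in the same setting, 1135 higher and 1321 lower. The similar totals of the lines therefore depend on the fit of all arrays. The shared genes and the CAL51 list counts below come from that fit. The lines shared 915 called genes, 44.8% of the CALDOX calls and 45.8% of the CAL51 calls, of which 524 rose in both and 369 fell in both.

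**Figure D1:**
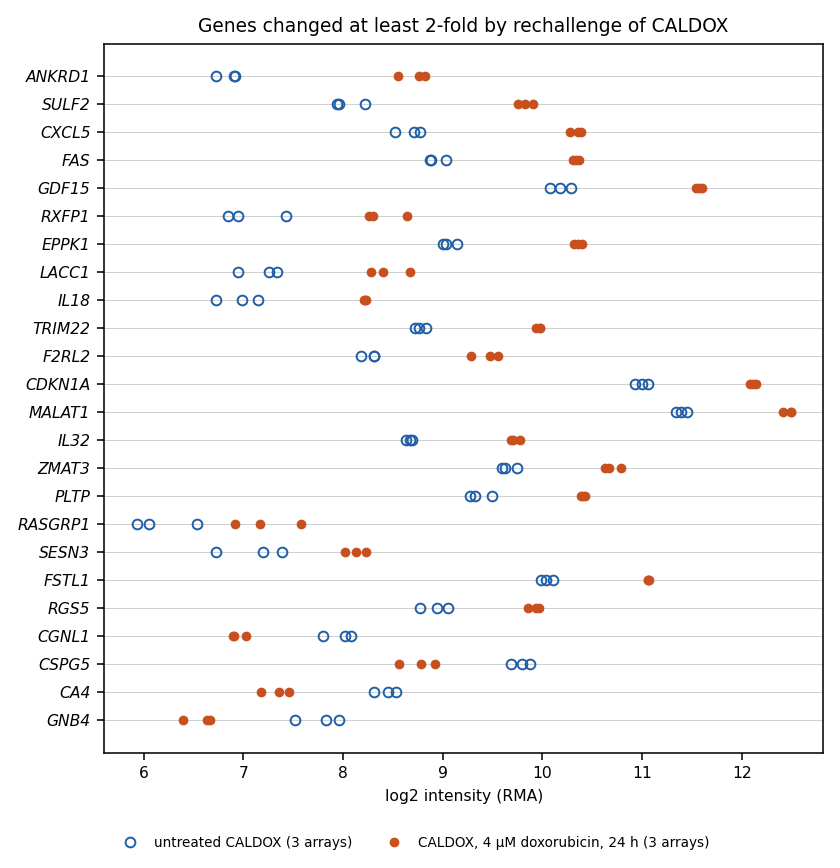
RMA log2 intensity of the 24 genes that changed at least 2-fold, for each of 3 untreated (open circles) and 3 treated (filled circles) CALDOX arrays. The 20 genes that rose stand above the 4 that fell, and no gene has overlapping groups.

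The largest rise was in ANKRD1, a target of the coactivator YAP that also responds to p53. It read 6.91, 6.92 and 6.73 on the untreated arrays and 8.76, 8.82 and 8.55 on the treated ones. Every treated array lay above every untreated array, a rise of 1.86 ± 0.08 or 3.62-fold (adjusted p = 1.6e-09). SULF2, an extracellular sulfatase that p53 induces, read 7.94, 8.22 and 7.96 and then 9.76, 9.83 and 9.91, a rise of 1.79 ± 0.12 (adjusted p = 2e-07). CXCL5, a neutrophil chemokine, rose by 1.68 ± 0.22, from 8.52, 8.77 and 8.71 to 10.28, 10.36 and 10.39 (adjusted p = 9.7e-05). FAS, a death receptor, rose by 1.41 ± 0.12, and GDF15, a secreted stress factor, by 1.39 ± 0.07. Further rises were in EPPK1, a cytoskeletal linker (2.47-fold), LACC1 (2.41-fold), IL18, an inflammasome cytokine (2.40-fold), and F2RL2, a thrombin receptor (2.25-fold). IL32, a cytokine, rose 2.09-fold and PLTP, a phospholipid transfer protein, 2.07-fold. MALAT1, a nuclear long noncoding RNA, rose from 11.39, 11.45 and 11.34 to 12.41, 12.49 and 12.49.

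The 4 genes that fell by at least 2-fold were GNB4, CA4, CSPG5 and CGNL1. GNB4, a G protein beta subunit, read 7.52, 7.96 and 7.83 untreated and 6.66, 6.39 and 6.63 treated, a change of -1.21 ± 0.12 (adjusted p = 8.2e-06). Its other probe sets, at -0.16 and -0.45, did not pass in limma over all probe sets (adjusted p = 0.36 and 0.18). CA4, a membrane carbonic anhydrase, changed by -1.09 ± 0.10, CSPG5, a transmembrane proteoglycan, by -1.04 ± 0.14 and CGNL1, a junction protein, by -1.02 ± 0.07. In none of the 4 did the groups overlap. MEOX1, a homeobox factor, and PTCH1, the Hedgehog receptor, came close, with -0.99 ± 0.09 and -0.92 ± 0.09. In CAL51 their values were 0.07 ± 0.09 and -0.04 ± 0.09, and the difference between the lines passed the test for both (adjusted p = 0.00041 and 0.0018).

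Genes were then read in 40 lists by role, with 945 of their 1043 genes tested. Their counts stand against the shares over all genes given above.

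**Figure D2:**
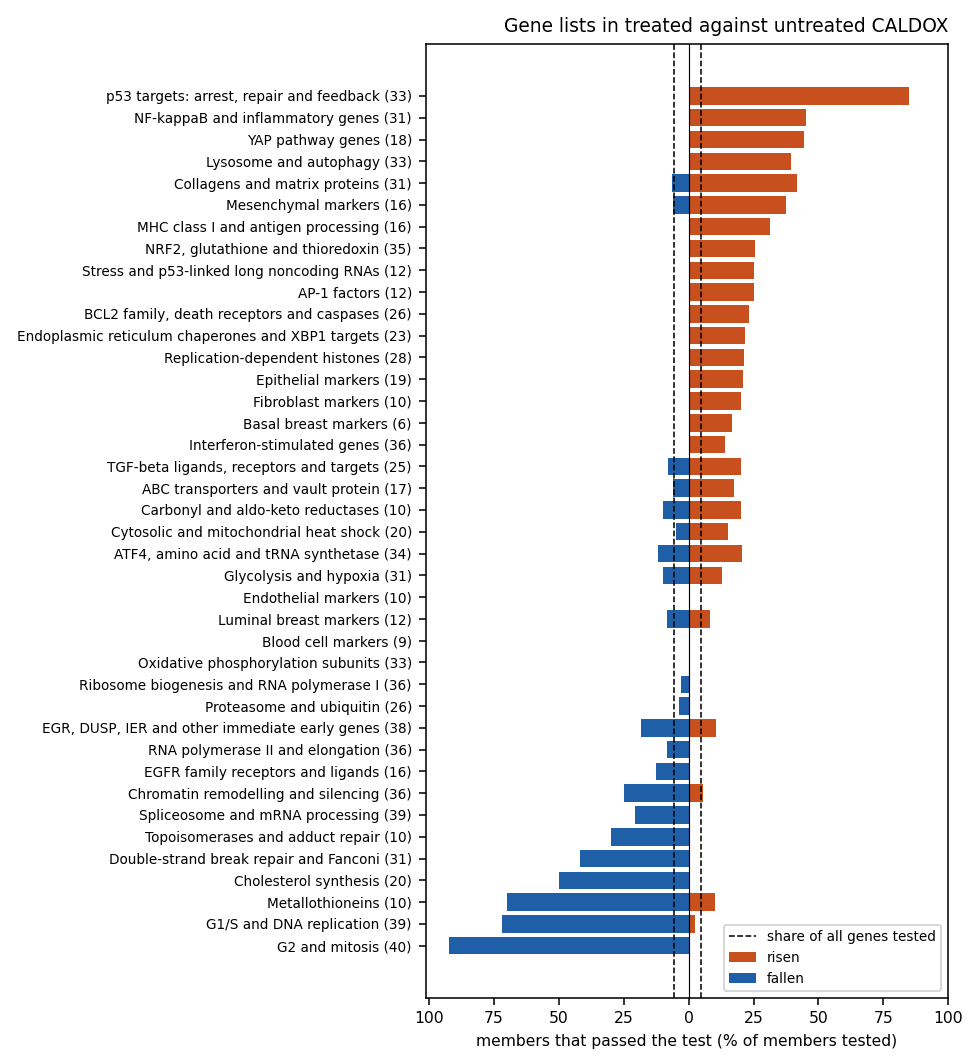
Share of each list's tested members (their number in brackets) that rose (right) or fell (left) in treated against untreated CALDOX, in percent, with dashed lines at the shares over all genes, 4.82% and 5.50%. The p53 list has the longest bar on the right and the G2 and mitosis list the longest on the left.

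The p53 targets rose as a group. Of 33 tested, 28 rose and 0 fell, with a median of 0.58 against -0.01 over all genes. CDKN1A read 10.93, 11.06 and 11 on the untreated arrays and 12.14, 12.08 and 12.11 on the treated ones, with no overlap. That is a rise of 1.11 ± 0.07, or 2.16-fold (adjusted p = 1.3e-07). Among arrest and growth-control genes, GADD45A (0.94 ± 0.08), PLK2 (0.88 ± 0.09) and SESN1 (0.71 ± 0.05) rose. ZMAT3, an RNA-binding tumour suppressor, rose by 1.05 ± 0.06, and TIGAR, which shifts glucose use away from glycolysis, by 0.84 ± 0.06. Feedback on p53 rose too: MDM2, its ubiquitin ligase, went from 9.51, 9.87 and 9.71 to 10.29, 10.40 and 10.32 (0.64 ± 0.09), and PPM1D, a phosphatase that ends damage signalling, rose by 0.48 ± 0.08. The DNA damage recognition genes DDB2 (0.41 ± 0.07) and XPC (0.33 ± 0.07) rose by less. EDA2R (0.01 ± 0.13), TP53I11 (0.09 ± 0.10), TNFRSF10C (0.09 ± 0.12), CMBL (0.21 ± 0.07) and KITLG (0.26 ± 0.10) did not pass on the probe set used. Other probe sets of CMBL (0.82, adjusted p = 1.7e-06) and KITLG (0.28, adjusted p = 0.028) passed in limma over all probe sets.

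Most of these responses were smaller than those of CAL51 to its first exposure. In CAL51, 29 of the 33 rose, with a median of 0.88. The group mean of untreated CALDOX was already above that of untreated CAL51 in 27 of the 33. Treated CALDOX was above treated CAL51 in 21 of the 33. These counts compare group means over the whole list and were not tested. The CALDOX change was below the CAL51 change in 28 of the 33, and the difference of responses passed for 15, all in that direction. Over all genes, the difference passed for 283, 1.43% of those tested: 114 higher in CALDOX (0.576%) and 169 lower (0.855%). With the spread of each array as a covariate, 487 passed, 247 higher and 240 lower. Leaving out single arrays gave 161 to 353, with counts of 161 without treated CALDOX replicate 1, 184 without replicate 2 and 173 without replicate 3. Without untreated CALDOX replicate 2 or 3 they were 186 and 168, and without untreated CAL51 replicate 3 or treated CAL51 replicate 1, 187 and 185. The p53 count stayed between 10 and 15 in the same leave-outs.

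CDKN1A averaged 9.65 in untreated CAL51 and 11.62 after its 24 h, against 11 and 12.11 in CALDOX. The CAL51 rise was 1.98 ± 0.07, and the difference of responses was -0.87 ± 0.10 (adjusted p = 0.00027). TRIM22, an antiviral ubiquitin ligase that p53 also induces, showed the same order. Its CALDOX arrays read 8.72, 8.83 and 8.76 before and 9.94, 9.98 and 9.98 after, while CAL51 went from a mean of 6.72 to 9.34. The difference of responses was -1.42 ± 0.11 (adjusted p = 1.6e-05). TP53I3, an oxidoreductase, rose by 0.67 ± 0.06 in CALDOX and 1.56 ± 0.06 in CAL51. CROT, a peroxisomal acyltransferase, rose by 0.99 ± 0.06 and 1.79 ± 0.06, a difference lost when a gene's probe sets were averaged (adjusted p = 0.12). For KITLG, the ligand of KIT, the values were 11.43, 11.34 and 11.37 untreated and 11.69, 11.67 and 11.56 treated, where CAL51 went from 6.78 to 8.28. GDF15, SULF2, GADD45A and PLK2 rose in both lines with differences of responses of -0.27 ± 0.10, -0.36 ± 0.17, -0.09 and 0, none of which passed. The MDM2 difference, -0.62 ± 0.13, passed (adjusted p = 0.028) but was lost in 8 of 12 leave-outs (adjusted p up to 0.085). It held without untreated CAL51 replicate 1, treated CAL51 replicate 2, untreated CALDOX replicate 1 or treated CALDOX replicate 2, and was lost with arrays centred on their median (adjusted p = 0.061).

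**Figure D3:**
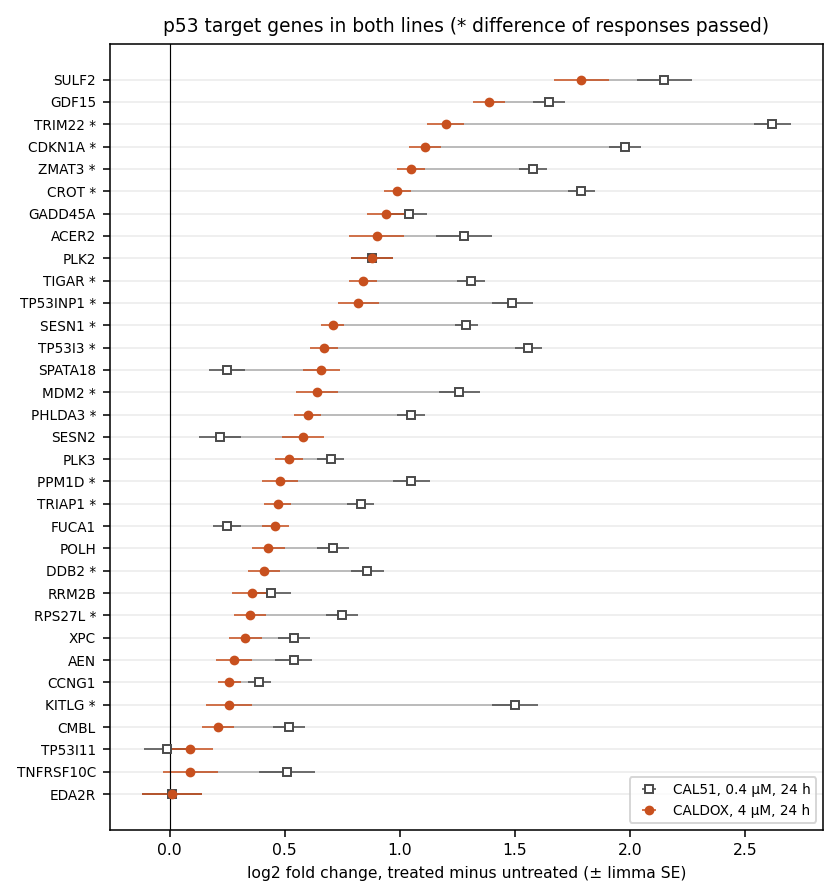
Log2 fold change with limma standard error of the 33 p53 targets tested, for CALDOX at 4 µM (filled circles) and CAL51 at 0.4 µM (open squares), both at 24 h. An asterisk marks the 15 genes whose difference of responses passed, and in all 15 the square lies to the right of the circle.

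In the list of BCL2 family members, death receptors and caspases, 6 of 26 rose and 0 fell, with a median of 0.07. FAS read 8.88, 9.03 and 8.87 untreated and 10.31, 10.34 and 10.37 treated. TNFRSF10B, a TRAIL receptor, went from 10.15, 10.23 and 10.26 to 10.71, 10.77 and 10.75 (0.53 ± 0.06). PMAIP1, which encodes the BH3-only protein NOXA, rose by 0.69 ± 0.09 and BIK, of the same class, by 0.58 ± 0.07. BAX, the pore-forming effector, rose by 0.29 ± 0.07 (adjusted p = 0.013), against 0.98 in CAL51, a CALDOX call lost without untreated replicate 1 or 3 or treated replicate 2 (adjusted p up to 0.055). The difference of responses passed for FAS (-0.97 ± 0.16), TNFRSF10B (-0.51 ± 0.08) and BAX (-0.69).

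Genes of G2 and mitosis fell almost throughout. Of 40 tested, 37 fell and 0 rose, with a median of -0.46. BUB1, a spindle checkpoint kinase, read 9.37, 9.58 and 9.45 untreated and 8.67, 8.82 and 8.76 treated, a change of -0.72 ± 0.09 (adjusted p = 9.3e-05). The kinesin KIF15 changed by -0.71 ± 0.07, and the kinetochore subunits SPC25 and NDC80 by -0.71 ± 0.09 and -0.67 ± 0.07. For the last, the treated arrays read 8.99, 8.99 and 8.99, and the untreated ones 9.53, 9.74 and 9.72. FOXM1, which drives mitotic genes, fell by 0.54 ± 0.06, CCNB1, the mitotic cyclin B1, by 0.45 ± 0.07, and MKI67, the proliferation antigen Ki-67, by 0.42 ± 0.06. The members that did not pass were CDK1 (-0.24 ± 0.09), SKA1 (-0.44 ± 0.16) and UBE2C (-0.18 ± 0.06). Of the other CDK1 probe sets, 2 passed in limma over all probe sets, at -0.35 and -0.34 (adjusted p = 0.0015 and 0.0027). In CAL51 22 of the 40 fell, with a median of -0.27. The difference of responses passed for 3 of the 40, all lower in CALDOX, and for none in 8 of 12 leave-outs, the others being those without untreated CAL51 replicate 1 or 3, treated CAL51 replicate 2 or untreated CALDOX replicate 1.

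Many promoters of such genes carry a pair of short elements through which the DREAM complex and NF-Y act, the cell-cycle homology region (CHR) and the CCAAT box. RefSeq promoters, 250 bases before to 50 after the annotated start on GRCh38.p14, were given for 34 of the 40 genes. On either strand, 25 of the 34 (73.5%) held TTTGAA and 26 (76.5%) held CCAAT, against 15.6% and 41.7% of 15384 genes tested that have a promoter in the table. A match describes letters and is not a measured binding site. The list was chosen by role, and the shares cover its members whether they fell or not. The stretches below are shown because they hold both elements close to the start in genes that fell. Matches are in capitals, and TTCAAA and ATTGG are the same elements read on the other strand. No such stretch was found for BUB1, KIF15, SPC25 and NDC80, which fell further than the genes shown.
DLGAP5: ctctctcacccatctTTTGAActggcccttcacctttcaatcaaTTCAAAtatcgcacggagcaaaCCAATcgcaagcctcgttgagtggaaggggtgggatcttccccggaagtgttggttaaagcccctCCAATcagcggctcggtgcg
KIF18A: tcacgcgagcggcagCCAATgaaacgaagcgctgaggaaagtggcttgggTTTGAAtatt
KIF11: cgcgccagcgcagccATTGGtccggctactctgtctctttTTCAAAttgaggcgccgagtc
CDC25C: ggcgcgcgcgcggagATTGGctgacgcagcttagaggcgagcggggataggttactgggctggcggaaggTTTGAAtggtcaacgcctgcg

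The DLGAP5 stretch lies at chr14:55191588-55191738 (minus strand) and ends 3 bases before the start, that of KIF18A at chr11:28108157-28108216 (minus strand) and ends 1 base before it. KIF11 lies at chr10:92593062-92593122 (plus strand) and CDC25C at chr5:138331814-138331904 (minus strand). DLGAP5, a spindle assembly factor, read 10.95, 11.10 and 11.05 untreated and 10.44, 10.45 and 10.36 treated, a change of -0.62 ± 0.07. KIF18A, a kinesin that trims microtubule ends, changed by -0.58 ± 0.12. The spindle motor KIF11 changed by -0.58 ± 0.08 and the phosphatase CDC25C, which starts mitosis, by -0.56 ± 0.07. All 4 fell without overlap between the groups.

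DNA replication genes fell with them. In the G1/S list 28 of 39 fell and 1 rose, with a median of -0.37. UHRF1, a maintenance methylation factor, read 10.65, 10.79 and 10.69 before and 10.08, 10.10 and 10.09 after, a change of -0.62 ± 0.06. POLE2, a DNA polymerase epsilon subunit (-0.58 ± 0.06), PRIM1, a primase subunit (-0.56 ± 0.05), and MCM7, a helicase subunit (-0.51 ± 0.05), fell without overlap. The member that rose was CCND1, cyclin D1, by 0.50 ± 0.11 (adjusted p = 0.0084). The E2F element TTTNNCGC was in 20 of 33 promoters of the list (60.6%) against 10.7% of all genes. That share covers members of a list chosen by role, whether they fell or not.

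Double-strand break repair and Fanconi genes fell in part: 13 of 31 fell and 0 rose, with a median of -0.18. CHEK1, the checkpoint kinase, changed by -0.65 ± 0.09, from 8.98, 9.17 and 8.95 to 8.49, 8.33 and 8.34. FANCI changed by -0.40 ± 0.07 and BRCA1, which directs homologous recombination, by -0.37 ± 0.07. The count was 8 without untreated replicate 2 and 7 without treated replicate 1 or 2. Of 10 topoisomerase and adduct repair genes, 3 fell. The targets of the drug, TOP2A and TOP2B, are among the 10, and only TOP2A fell. TOP2A read 10.60, 10.71 and 10.66 untreated and 10.20, 10.22 and 10.29 treated (-0.42 ± 0.08, adjusted p = 0.0021), while TOP2B changed by -0.20 ± 0.10 and did not pass (adjusted p = 0.29). TDP1, of the adduct repair genes, fell by 0.42 ± 0.06 on the probe set used. Its other probe sets, at -0.17 and -0.11, did not pass in limma over all probe sets (adjusted p = 0.34 and 0.7). The call of the third gene that fell, MRE11 (-0.26 ± 0.06), was lost without untreated replicate 1 or treated replicate 1 or 2 (adjusted p up to 0.069). It was also lost when the MRE11 probe sets were averaged (adjusted p = 0.84).

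Of 28 replication-dependent histone genes, 6 rose and 0 fell, with a median of 0.04. H2BC12 read 10.29, 10.29 and 10.31 before and 10.99, 11.08 and 11.06 after, a rise of 0.74 ± 0.05. H2AC6 (0.70 ± 0.12), H2BC4 (0.57 ± 0.11) and H2BC5 (0.53 ± 0.12) also rose. Histone genes are near-identical copies, and a probe set may read several of them. Their transcripts mostly lack poly-A tails, and the tailed fraction was not measured apart.

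Drug transport and detoxification changed in a few genes. Of 17 ABC transporters and the vault protein, 3 rose and 1 fell. ABCB1, the P-glycoprotein pump, read 5.71, 5.57 and 5.68 untreated and 5.73, 5.74 and 5.83 treated, and its change of 0.11 ± 0.09 did not pass (adjusted p = 0.54). ABCC1, the MRP1 pump, read 11.69, 11.77 and 11.66 and then 11.85, 11.94 and 11.86, a change of 0.18 ± 0.06 that did not pass (adjusted p = 0.065). ABCG2, another efflux pump, fell by 0.45 ± 0.09 (adjusted p = 0.0046), from 7.21, 7.01 and 7.24 to 6.58, 6.65 and 6.85. In CAL51 ABCG2 rose by 0.42 ± 0.09, and the difference of responses passed (-0.88 ± 0.13, adjusted p = 0.0023). ABCA1, a cholesterol exporter, rose by 0.74 ± 0.11 and MVP, the major vault protein, by 0.51 ± 0.09.

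Among carbonyl and aldo-keto reductases, which reduce the drug's side-chain ketone, 2 of 10 rose and 1 fell. AKR1C1 (0.56 ± 0.08) and AKR1C2 (0.50 ± 0.06) rose, and as near-identical paralogs their probe sets may read both. CBR3 fell from 8.49, 8.48 and 8.38 to 7.80, 7.94 and 7.79, a change of -0.61 ± 0.07 against 0.15 ± 0.07 in CAL51. In the NRF2, glutathione and thioredoxin list, 9 of 35 rose and 0 fell, with a median of 0.10. SLC7A11, the cystine importer, led it, followed by GPX2, a glutathione peroxidase (0.74 ± 0.10), SRXN1, sulfiredoxin (0.52 ± 0.07), and CAT, catalase (0.49 ± 0.06).

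Metallothioneins, small cysteine-rich proteins that bind zinc and copper and scavenge radicals, fell. Of the 10 genes in the list, 7 fell and 1 rose, with a median of -0.39, and 7 fell in every leave-out. MT1M read 9.68, 9.82 and 9.68 untreated and 8.83, 8.79 and 8.88 treated, a change of -0.89 ± 0.10 (adjusted p = 2.3e-05). MT1F (-0.58 ± 0.05), MT1G (-0.48 ± 0.06), MT1E (-0.41 ± 0.06), MT1X (-0.40 ± 0.06), MT1H (-0.38 ± 0.06) and MT2A (-0.36 ± 0.05) followed. No untreated array of these 7 genes overlapped a treated one. The genes are close paralogs, so their probe sets may read each other's transcripts and are not 7 independent measurements. In CAL51 the MT1M change was 0.01 ± 0.10 and the difference of responses passed (-0.90 ± 0.14, adjusted p = 0.0026). It passed for MT1F and MT1G too, but both were lost in most leave-outs. For MT1F it was lost in 9 of 12, all but those without untreated CAL51 replicate 2, treated CAL51 replicate 2 or untreated CALDOX replicate 1, and for MT1G in 11, all but that without treated CAL51 replicate 2. SLC30A1, a zinc exporter under the same metal-sensing factor MTF1, rose by 0.21 ± 0.05, a call that was lost without untreated replicate 1 or 3 or treated replicate 2 (adjusted p up to 0.072).

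MTF1 acts through metal response elements with the core TGCNCNC. A promoter was given for 5 genes of the list, and all 5 held this core on either strand, against 66.8% of all genes, so the letters alone separate little. The MT1X stretch at chr16:56682305-56682438 (GRCh38.p14, plus strand) is shown because it holds 4 matches, in capitals, 1 of them on the other strand.
MT1X: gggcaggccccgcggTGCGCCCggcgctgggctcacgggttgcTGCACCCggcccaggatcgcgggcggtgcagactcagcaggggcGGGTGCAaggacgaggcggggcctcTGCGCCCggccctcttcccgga

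**Figure D4:**
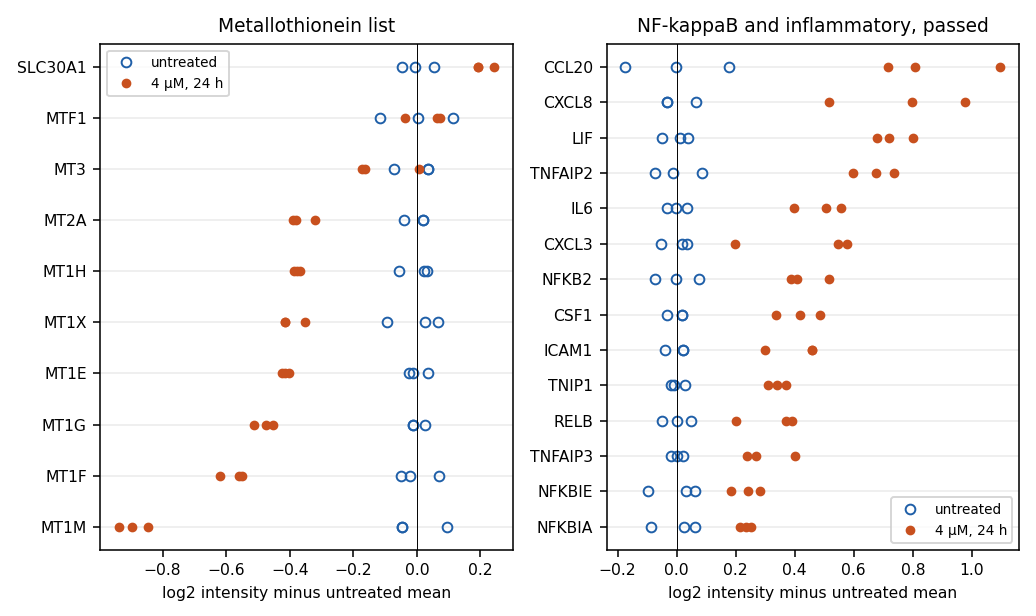
Log2 intensity of each array minus the gene's mean over the 3 untreated CALDOX arrays, for the metallothionein list (left) and the NF-kappaB and inflammatory genes that rose (right), with open circles for untreated and filled circles for treated arrays. The 7 metallothionein genes lie below 0 after treatment, and the 14 genes on the right lie above it.

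Inflammatory genes of the NF-kappaB pathway rose. NF-kappaB dimers of REL proteins are held by inhibitors of the IkB family and released by DNA damage or cytokine signals. Of 31 genes, 14 rose and 0 fell, with a median of 0.19, and 10 to 16 rose across the alternative settings. Among the secreted products, CCL20, a chemokine, read 6.86, 7.21 and 7.03 before and 7.75, 8.13 and 7.84 after (0.87 ± 0.12, adjusted p = 0.00021). CXCL8, interleukin 8, read 6.95, 7.05 and 6.95 and then 7.78, 7.50 and 7.96 (0.76 ± 0.11). IL6 went from 7.10, 7.03 and 7.06 to 7.62, 7.57 and 7.46 (0.49 ± 0.06), and LIF rose by 0.73 ± 0.07. In none of these did the arrays overlap. CXCL3 rose by 0.44 ± 0.12 (adjusted p = 0.021), a call lost when any array but treated replicate 1 was left out (adjusted p up to 0.11).

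Of the pathway's own components, the subunits NFKB2 (0.44 ± 0.07) and RELB (0.32 ± 0.08) rose, while RELA (0.09 ± 0.06), NFKB1 (0.09 ± 0.06) and REL (0.14 ± 0.09) did not pass. The inhibitors NFKBIA (0.23 ± 0.06) and TNFAIP3 (0.30 ± 0.09) rose by little, and ICAM1, an adhesion molecule, by 0.41 ± 0.07. The RELB call was lost without untreated replicate 3 or treated replicate 1 or 2 (adjusted p up to 0.075), that of NFKBIA without untreated replicate 1 or treated replicate 1 or 3 (0.079), and that of TNFAIP3 in all 6 leave-outs (0.18). TNF, IL1A, IL1B, CCL2 and PTGS2 lay between -0.06 and 0.04 and did not pass. In CAL51, 9 of the 31 rose. CCL20 there changed by 0.00 ± 0.12, and the difference of responses passed (adjusted p = 0.017) but was lost without untreated CAL51 replicate 2 or 3, treated CAL51 replicate 3 or treated CALDOX replicate 2. CXCL2 was the reverse, with 0.02 ± 0.10 in CALDOX and 0.73 in CAL51, a difference lost without treated CAL51 replicate 3, untreated CALDOX replicate 1 or 2, or treated CALDOX replicate 1 or 3.

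The kappaB element, searched as GGG and TTTCC separated by any 2 bases, was in 13 of 25 promoters of the list (52.0%) against 2.7% of all genes. The list was chosen for this pathway, and the share covers members that rose and members that did not, which were not counted apart. The 4 stretches below come from genes that rose, with the element in capitals (read on the other strand in CCL20). They lie at chr2:227813738-227813797 (CCL20, plus strand), chr7:22727102-22727161 (IL6, plus), chr10:102394475-102394534 (NFKB2, plus) and chr4:74038734-74038793 (CXCL3, minus) on GRCh38.p14.
CCL20: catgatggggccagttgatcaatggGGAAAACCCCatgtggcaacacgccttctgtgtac
IL6: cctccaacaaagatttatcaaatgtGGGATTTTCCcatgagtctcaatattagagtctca
NFKB2: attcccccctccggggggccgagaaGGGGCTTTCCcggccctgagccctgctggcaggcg
CXCL3: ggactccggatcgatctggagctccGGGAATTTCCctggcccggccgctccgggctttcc

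Antigen presentation and interferon genes moved less. In the MHC class I list 5 of 16 rose and 0 fell. PSMB8, an immunoproteasome subunit, rose by 0.58 ± 0.11, TAP1, the peptide transporter, by 0.55 ± 0.06 and the heavy chain HLA-C by 0.26 ± 0.05. The TAP1 arrays read 8.69, 8.80 and 8.65 before and 9.28, 9.24 and 9.27 after, and its CAL51 rise of 1.12 ± 0.06 was larger (difference -0.57 ± 0.09, adjusted p = 0.0024). Of 36 interferon-stimulated genes, 5 rose and 0 fell, with a median of 0.00, and 3 rose without untreated replicate 1 or treated replicate 1. ISG15, a ubiquitin-like modifier, rose by 0.35 ± 0.06, while IFIT1 changed by -0.32 ± 0.11 and did not pass (adjusted p = 0.075).

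Early growth-signal genes were mixed. Among 12 AP-1 factors 3 rose, led by FOSL1, from 7.87, 7.90 and 7.78 to 8.73, 8.78 and 8.67 (0.88 ± 0.07), and only 1 rose without untreated replicate 1. FOS changed by 0.06 ± 0.05 in CALDOX and 0.70 in CAL51, and the difference passed (-0.64, adjusted p = 0.00032). Its mean was already 11.39 in untreated CALDOX, against 9.16 untreated and 9.86 treated in CAL51. Of 38 EGR, DUSP, IER and related genes, 4 rose and 7 fell, with 4 falling without untreated replicate 2 or treated replicate 2 or 3. DUSP6, a feedback phosphatase of ERK, read 12.43, 12.53 and 12.50 untreated and 11.81, 11.85 and 11.87 treated, a change of -0.65 ± 0.09. IER5 (0.57 ± 0.07) and DUSP1 (0.44 ± 0.06) rose, as did MYC, by 0.29 ± 0.06 (adjusted p = 0.0036). The other DUSP1 probe sets, at 0.03 and 0.28, did not pass in limma over all probe sets (adjusted p = 0.9 and 0.12). EGR3 changed by -0.25 ± 0.14 in CALDOX, which did not pass, and by 0.83 ± 0.14 in CAL51, with a difference of -1.08 ± 0.20 (adjusted p = 0.011). HES1, a Notch target, changed by -0.11 ± 0.07 and 0.74 in the same order, and its difference passed (-0.85, adjusted p = 0.00033). The HES1 mean was 11.22 in untreated CALDOX, against 9.52 untreated and 10.26 treated in CAL51.

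Of the 40 lists, that of the ATF4 pathway held the most genes whose difference between the lines passed. ATF4 is the transcription factor of the integrated stress response and raises genes for amino acid synthesis, uptake and tRNA charging. In CALDOX 7 of the 34 genes rose and 4 fell, with a median of 0.02, while in CAL51 0 rose and 23 fell, with a median of -0.36. The difference of responses passed for 19 of the 34, all higher in CALDOX, against 0.576% of all genes. That count ran from 17 to 25 over all settings tried. ATF4 itself read 11.92, 12.01 and 12 before and 11.95, 11.95 and 11.98 after rechallenge, so the groups overlapped (-0.02 ± 0.06, adjusted p = 0.93). In CAL51 it fell by 0.72 ± 0.06, and the difference passed (0.71 ± 0.08, adjusted p = 0.00025).

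Of the 7 genes that rose in CALDOX, 3 are subunits of amino acid transporters. SLC7A11 read 10.01, 10.14 and 10.06 untreated and 10.93, 10.93 and 10.89 treated, a rise of 0.85 ± 0.07 (adjusted p = 2e-06). In CAL51 it fell by 0.36 ± 0.07, so the responses differed by 1.21 ± 0.10 (adjusted p = 1.6e-05). Its heavy chain partner SLC3A2 went from 9.97, 10.19 and 10.17 to 10.70, 10.70 and 10.70 (0.59 ± 0.07), and SLC7A5, the leucine transporter that uses the same partner, rose by 0.71 ± 0.07. NUPR1, a stress-induced chromatin protein, rose by 0.66 ± 0.08 in CALDOX and fell by 0.27 ± 0.08 in CAL51. SESN2, which is both a p53 and an ATF4 target, rose by 0.58 ± 0.09.

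Several genes of the list fell further in CAL51, where most of the list began higher. By group mean, untreated CALDOX was above untreated CAL51 in only 6 of the 34. Treated CALDOX was above treated CAL51 in 22. ASNS, asparagine synthetase, read 9.87, 10.03 and 9.99 untreated and 9.70, 9.72 and 9.81 treated, a change of -0.22 ± 0.07 against -1.58 ± 0.07 in CAL51. Its call in CALDOX (adjusted p = 0.044) was lost in all leave-outs but that of untreated replicate 1 (adjusted p up to 0.17), but the difference of 1.35 ± 0.09 was not (adjusted p = 5.3e-06). TRIB3, a pseudokinase that restrains ATF4, changed by -0.26 ± 0.06 and -1.34 ± 0.06 in the same order, and its CALDOX call was lost without untreated replicate 2 or treated replicate 1 or 3 (adjusted p up to 0.071). CHAC1, which degrades glutathione, changed by -0.12 ± 0.08 in CALDOX and fell by 0.98 ± 0.08 in CAL51. DDIT3, which encodes CHOP, changed by 0.14 ± 0.09 and fell by 0.57 ± 0.09. For INHBE, an inhibin subunit, the values were -0.23 ± 0.13 and -1.39 ± 0.13. Its mean was 5.53 in untreated CALDOX, near the 5.20 of treated CAL51, while untreated CAL51 averaged 6.59. PHGDH, the first enzyme of serine synthesis, fell in both lines, by 0.69 ± 0.06 and 1.00 ± 0.06. The count of 4 that fell in CALDOX was 2 without untreated replicate 2 or treated replicate 1 or 3.

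**Figure D5:**
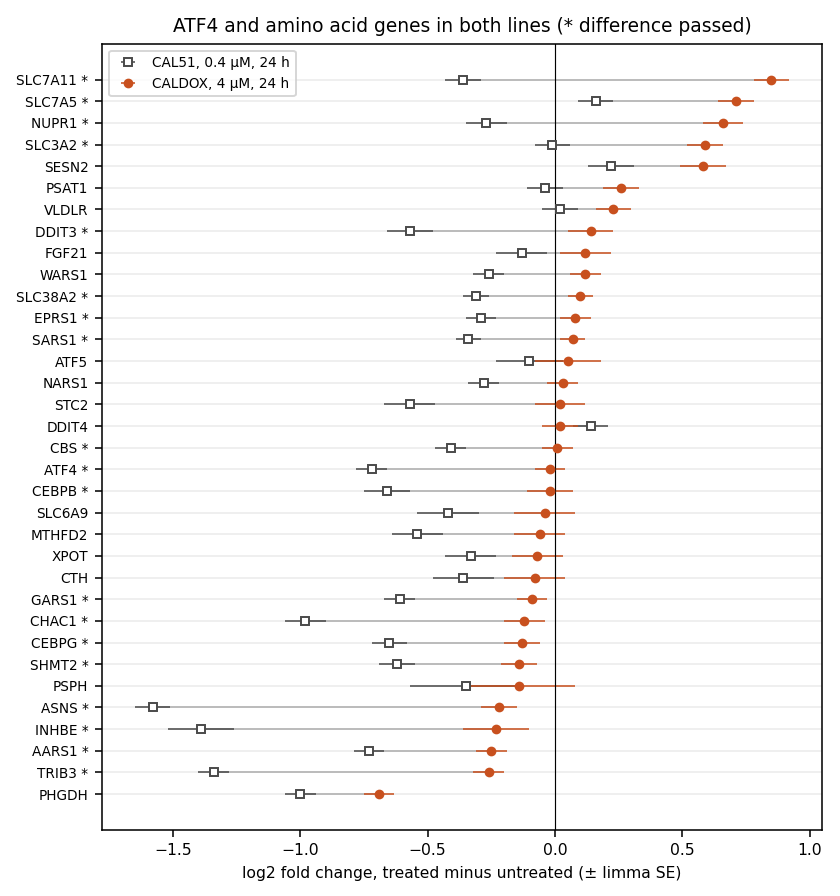
Log2 fold change with limma standard error of the 34 ATF4 and amino acid genes tested, for CALDOX at 4 µM (filled circles) and CAL51 at 0.4 µM (open squares), both at 24 h. An asterisk marks the 19 genes whose difference passed, and in each of them the circle lies to the right of the square.

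Endoplasmic reticulum chaperones and XBP1 targets differed in the same direction. In CALDOX 5 of 23 rose and 0 fell, and in CAL51 0 rose and 9 fell. EDEM2, which feeds misfolded glycoproteins into degradation, rose from 9.16, 9.22 and 9.11 to 9.79, 9.77 and 9.80 (0.62 ± 0.07), and DNAJB9, a chaperone cofactor, by 0.41 ± 0.06. XBP1 rose by 0.32 ± 0.07. The difference passed for 6 genes, but for only 2 or 3 in 9 of 12 leave-outs, all but those of untreated CAL51 replicate 2 and treated CAL51 replicates 2 and 3, and the count that rose in CALDOX was 3 without untreated replicate 1 or 3 or treated replicate 2 or 3.

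Cholesterol synthesis genes fell in both lines. In CALDOX 10 of 20 fell and 0 rose, with a median of -0.22, and in CAL51 14 fell, with a median of -0.35. INSIG1, a sterol sensor that is itself sterol-regulated, read 10.01, 10.31 and 10.13 before and 9.34, 9.30 and 9.41 after, a change of -0.80 ± 0.11. HMGCS1, which makes the precursor of mevalonate, fell by 0.54 ± 0.05, with all 3 treated arrays at 9.57. SCD, a fatty acid desaturase, and EBP, a sterol isomerase, each fell by 0.53 ± 0.06. Lysosome and autophagy genes rose in 13 of 33 cases, with a median of 0.15 and none falling. DRAM1, a p53-induced autophagy gene, read 10.57, 10.64 and 10.61 and then 11.48, 11.52 and 11.52 (0.90 ± 0.06). GABARAPL1 (0.81 ± 0.13), WIPI1 (0.66 ± 0.11) and the cargo receptor SQSTM1 (0.37 ± 0.07) also rose.

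Matrix and cytoskeletal genes rose in part. Of 31 collagens and matrix proteins, 13 rose and 2 fell. COL12A1 read 9.40, 9.43 and 9.30 untreated and 10.15, 10.31 and 10.29 treated, a rise of 0.87 ± 0.06, against 0.20 ± 0.06 in CAL51, and the difference passed (0.67 ± 0.09, adjusted p = 0.00069). FBN1, fibrillin (0.68 ± 0.07), and COL1A2 (0.59 ± 0.05) rose, and FN1, fibronectin, rose by 0.32 ± 0.06 where in CAL51 it fell by 0.30. LOXL2, a collagen cross-linker, fell by 0.57 ± 0.06. Of 18 YAP pathway genes 8 rose and 0 fell, with 5 rising without untreated replicate 1 or 3 or treated replicate 2 or 3. After ANKRD1 came CRIM1 (0.75 ± 0.07), AMOTL2 (0.63 ± 0.10) and the coactivator WWTR1 (0.54 ± 0.12). CD44, a hyaluronan receptor, rose from 11.25, 11.34 and 11.27 to 12.16, 12.18 and 12.24. ACTA2, smooth muscle actin, rose by 0.82 ± 0.07 and VIM, vimentin, by 0.49 ± 0.07, among 6 of 16 mesenchymal markers that rose, with a list median of 0.00. The 1 that fell was CDH2, N-cadherin (-0.35 ± 0.11, adjusted p = 0.046), a call lost in 5 of 6 leave-outs, all but that of untreated replicate 1 (adjusted p up to 0.19). Of 19 epithelial markers, 4 rose and 0 fell, and 2 rose without untreated replicate 1 or 2 or treated replicate 2 or 3. KRT19, a keratin, rose by 0.47 ± 0.07, and in CAL51 by 1.30 ± 0.07, with a difference of -0.83 that passed. The KRT19 mean was 11.35 in untreated CALDOX, against 6.59 untreated and 7.89 treated in CAL51.

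Lists of basic cell functions were read the same way. Of 33 nuclear-encoded oxidative phosphorylation subunits 0 rose and 0 fell, with a range of -0.22 to 0.08, but 6 fell with the spread covariate, 8 with a trended robust prior and 13 with array weights. Of 36 ribosome biogenesis genes 0 rose and 1 fell, FBL, the nucleolar methyltransferase (-0.30 ± 0.05), and of 26 proteasome genes 0 rose and 1 fell, or 7 with the trended prior, 12 with array weights and 0 in every leave-out but that of untreated replicate 1. In the spliceosome list 8 of 39 fell, led by SNRPB (-0.39 ± 0.06), with 15 under the trended prior, 22 under array weights and 5 without untreated replicate 2 or 3 or treated replicate 1. Among chromatin regulators 9 of 36 fell, including EZH2, the polycomb methyltransferase (-0.44 ± 0.09), and 2 rose, the histone deacetylase HDAC9 by 0.79 ± 0.15, and 5 fell when any CALDOX array but untreated replicate 1 was left out. In the blood cell and endothelial marker lists 0 of 9 and 0 of 10 rose or fell. Of 10 fibroblast markers 2 rose, COL1A2 and PDPN, podoplanin (0.51 ± 0.07).

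Some genes responded in opposite directions in the lines. Of the genes called in both, 11 rose in CALDOX and fell in CAL51, among them SLC7A11, NUPR1, FN1 and NHSL1, and 11 fell in CALDOX and rose in CAL51, among them ABCG2, APOBEC3B, a cytidine deaminase (-0.60 and 0.30), and RGS2, a G protein regulator (-0.46 and 0.38). In CAL51 the limma adjusted p was near the threshold for APOBEC3B (0.046), NUPR1 (0.035) and NHSL1 (0.029). For SLC7A11, FN1, ABCG2 and RGS2 it was 0.0037, 0.0024, 0.0082 and 0.0083. The CAL51 calls of single genes were not recomputed under other settings. The largest positive difference among the genes named was in RXFP1, the relaxin receptor. It read 6.95, 7.43 and 6.85 before and 8.26, 8.30 and 8.64 after rechallenge, a rise of 1.32 ± 0.13, against -0.16 ± 0.13 in CAL51, and the difference was 1.49 ± 0.19 (adjusted p = 0.00055). CAL51 means were 5.62 untreated and 5.45 treated. TSPAN6, a tetraspanin, fell by 0.79 ± 0.08 and ADH1C, an alcohol dehydrogenase, by 0.85 ± 0.14, with differences of -1.01 ± 0.11 and -1.09 ± 0.20. RASEF and XG changed by 0.17 ± 0.08 and -0.06 ± 0.14 in CALDOX, which did not pass, and rose by 1.23 ± 0.08 and 1.11 ± 0.14 in CAL51.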

How the data were processed

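The deposited table holds log2 intensities of 54675 probe sets on 15 Affymetrix arrays, made by the authors with RMA per the submitters' processing notes, which name no RMA version. Their log base was inferred from the range, 3.083 to 14.762. Biotin-labelled cRNA was hybridised, per the labels' protocols. Control probe sets (62) entered no test, and no gene was named for the 1801 probe sets with more than 1 symbol or the 11777 without any. Of 41091 single-symbol probe sets, 41037 had a gene ID in the RefSeq table and 0 symbols changed. The probe set with the highest mean over all arrays stood for each gene. Of the genes called in CALDOX, 1274 had another probe set, tested in limma over all single-symbol probe sets. In 549 of these another probe set passed in the same direction, and in 6 another passed in the opposite direction. Many calls therefore rest on 1 probe set.

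The test was limma's moderated test (limma 3.58.1, R 4.3.3), in 1 fit of all 15 arrays in 5 groups (residual df 10, prior df 5.397), with Benjamini-Hochberg adjustment over 19775 genes. The difference of responses was the interaction contrast in the same fit. The fit was checked on simulated data. Only 3 arrays a group limit the precision, and p-values measure the spread between these cultures. The 40 gene lists hold 1043 genes, of which 98 were not analysed here.

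The members and lists were chosen with earlier results of these data known. Named genes were the 15 largest called changes each way of at least 2-fold without overlap, the 4 most changed members of each list at most, the 10 largest called differences each way of at least 2-fold, and ABCB1, ABCC1, TOP2A, TOP2B, CDKN1A, MDM2, FAS and MYC; another gene of the rule is not reported here. Further genes, among them the promoter examples, were named after their values were seen. Alternatives were other arrays in the fit, array weights, a replicate block, repeated quantile normalization, median centring, the interquartile range as a covariate, the mean of a gene's probe sets, a filter on means under 5, another prior and leaving out each array.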

Additional observations from a re-analysis of the deposited data

Results flagged for a closer look

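For 66 of the genes named, CALDOX and CAL51 differed in their response at 24 h by the interaction test. The values below are that difference on the log2 scale, the CALDOX change at 4 µM minus the CAL51 change at 0.4 µM. Line, dose and any drug in the untreated CALDOX cultures cannot be told apart in it.

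Among p53 targets and death receptors the CALDOX response was the lower one for CDKN1A (-0.87), FAS (-0.97), TRIM22 (-1.42), ZMAT3 (-0.53), MDM2 (-0.62), PPM1D (-0.57), SESN1 (-0.58), TIGAR (-0.46), TP53I3 (-0.89), TNFRSF10B (-0.51), DDB2 (-0.46), CROT (-0.81), BAX (-0.69), DRAM1 (-0.43), KITLG (-1.24), PURPL (-1.24) and TP53TG1 (-0.55). Among amino acid and stress response genes it was the higher one for ASNS (1.35), ATF4 (0.71), CHAC1 (0.86), DDIT3 (0.71), INHBE (1.16), NUPR1 (0.93), SLC7A11 (1.21), SLC7A5 (0.55), SLC3A2 (0.6), TRIB3 (1.09), DNAJB9 (0.52) and EDEM2 (0.42). Other genes with the higher response in CALDOX were ANKRD1 (0.95), RXFP1 (1.49), RASGRP1 (1.06), CCL20 (0.87), COL12A1 (0.67), COL1A2 (0.39), FN1 (0.62), FSTL1 (0.58), IL32 (0.54), LTBP1 (0.54) and NHSL1 (0.68). The metallothionein, cell-cycle and histone genes with the lower response were MT1F (-0.35), MT1G (-0.38), MT1M (-0.9), NDC80 (-0.46), POLE2 (-0.36), UBE2C (-0.36) and H2BC12 (-0.44). The lower response was also CALDOX's for ABCG2 (-0.88), ADH1C (-1.09), APOBEC3B (-0.89), CA4 (-0.83), CBR3 (-0.75), CXCL2 (-0.71), EGR3 (-1.08), FOS (-0.64), GNB4 (-0.87), HES1 (-0.85), KRT19 (-0.83), LOXL2 (-0.52), MEOX1 (-1.06), PTCH1 (-0.88), RASEF (-1.07), RGS2 (-0.84), TAP1 (-0.57), TSPAN6 (-1.01) and XG (-1.17). Averaging a gene's probe sets ended the call for COL1A2 (adjusted p = 0.53), FSTL1 (0.58), LOXL2 (0.49), GNB4 (0.3), CROT (0.12), CXCL2 (0.12), DNAJB9 (0.083) and MT1G (0.7). Centring arrays on their median ended it for COL1A2, DRAM1, EDEM2, MDM2, MT1F, MT1G, NDC80, POLE2 and UBE2C (limma adjusted p 0.053 to 0.1). Leaving out at least 1 array ended it for CCL20, COL1A2, CXCL2, DDB2, DRAM1, EDEM2, MDM2, MT1F, MT1G, NDC80, POLE2, RASGRP1, TP53TG1 and UBE2C (0.052 to 0.12).

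Outside the expression measurement, the poly-A control probe sets were 0.36 higher on the treated than on the untreated CALDOX arrays. The untreated CALDOX arrays also lay below every CAL51 array in these controls. The part of this offset in the results was not tested.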

How the results depend on the processing

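With array weights 4961 genes changed in CALDOX, 3200 in CAL51 and 1231 in their difference, in a fit whose weights did not converge. CAL51 gave 870 genes when only its own arrays were fitted. The difference gave 426 genes after repeated quantile normalization, 487 with the spread covariate and 470 with a trended robust prior. Leaving out single arrays gave 1341 to 1651 genes for CALDOX and 161 to 353 for the difference. Other settings gave 1721 to 2823 for CALDOX. The cause of these moves was not tested. Over all named genes, 4739 recomputed values kept direction and side of the threshold, 266 lost it, 102 gained it and 26 changed sign.

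No gene that changed sign was called in CALDOX. Averaging probe sets gave DCN 0.006, ERG 0.02 and TNFRSF10C -0.035. Array weights gave EGFR -0.007 and KRT8 -0.002. Quantile normalization gave EDA2R -0.006 and TNF -0.008, the spread covariate EDA2R -0.009 and median centring TNF -0.002. Leaving out single arrays gave CCL2 -0.033 to 0.145, CDH5 -0.018 to 0.179, CXCL2 -0.028 to 0.061, EDA2R -0.113 to 0.141, EGFR -0.059 to 0.367, IL1A -0.04 to 0.085, KDR -0.109 to 0.01, KRT8 -0.041 to 0.06, TNF -0.037 to 0.069 and XG -0.126 to 0.024.

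A replicate block gave 1900 genes for CALDOX, 214 for the difference and 1787 for CAL51. With it the difference was lost for DDB2, EDEM2, MDM2, MT1G, POLE2 and UBE2C (limma adjusted p 0.052 to 0.069). Same-numbered arrays correlated in their deviations from the group means at 0.162, 0.142 and 0.03 in CALDOX and 0.226, 0.375 and -0.128 in CAL51, so the numbers were not taken to pair the samples. The CALDOX arrays of replicates 1 and 2 correlated best with their own number and those of replicate 3 did not, a hint from the data and not from the design.

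The table gives no signal over background, so dim genes cannot be told from absent ones.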
